A study of Mus musculus with 2 samples.

Results

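The genes described are 10 enzymes of mitochondrial fatty acid oxidation, Cpt1a, Cpt2, Acadm, Acadl, Acadvl, Hadha, Hadhb, Hadh, Acaa2 and Etfdh, out of 14366 genes in the deposited matrices. They were chosen by name for their place in the pathway, and all 10 had rows in both matrices. Cells were hematopoietic stem cells (HSC) of C57/B6 mice aged 6 to 8 weeks, sorted as Lin-, Sca-1+, c-Kit+, CD150+ and CD48- and pooled from 8 mice. Every culture received stem cell factor at 100 ng/ml and thrombopoietin at 50 ng/ml for 48 h, factors known to drive division and megakaryocyte formation, so the cells measured were HSC and their progeny. One culture also received 10 µM deferoxamine (DFO), an iron chelator, and the other sterile water (vehicle). There was 1 library for each, so no difference has a replicate check, no test was possible and no p-value is given. That both cultures came from 1 sort is not stated for each library.

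Long-chain fatty acids enter mitochondria as carnitine esters. Cpt1a, on the outer membrane, makes the ester, and Cpt2, on the inner membrane, returns it to the coenzyme A form. Each round of beta-oxidation then takes an acyl-CoA dehydrogenase, a hydratase, a 3-hydroxyacyl-CoA dehydrogenase and a thiolase, and electrons pass through the electron transfer flavoprotein and Etfdh, an iron-sulfur protein, to ubiquinone. In HSC the pathway is known for its link to stem cell maintenance, under the nuclear receptor PPAR-delta and Pml.

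The vehicle library held 8708 cells with 260938938 molecules, and the DFO library 9852 cells with 284326017. Median molecules per cell were 27806 and 27114, and median mitochondrial shares 3.88% and 4.395%. The libraries shared 24 barcode strings. Levels are molecules of a gene divided by all molecules of the library and scaled to counts per 1000000 (CPM), and intervals are exact 95% Poisson intervals, which cover counting error only. Differences are log2((DFO CPM + 1)/(vehicle CPM + 1)). The kit counts 1 tag at the 3′ end of each molecule, so no division by transcript length was made. Fewer cells in a state that expresses a gene and less RNA per cell cannot be told apart in these sums. The summed level of 14 megakaryocyte markers was 2220 CPM in the vehicle and 1190 CPM in the DFO library, with 10 and 8 of them at 10 CPM or more, and that of 14 HSC markers 497 and 526 CPM. The summed mast and basophil markers were at 10.4 and 6.83 CPM and the lymphoid markers at 13.6 and 14.0 CPM.

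Hadha and Hadhb encode the subunits of the trifunctional protein, which carries the last steps of long-chain oxidation. They lie head to head on chromosome 5, Hadha at chr5:30118304-30155162 on the minus strand and Hadhb at chr5:30155248-30184593 on the plus strand in the GENCODE M21 annotation of GRCm38. The stretch between their GENCODE starts is shown because it separates the genes and their transcripts did not keep 1 ratio. It runs 85 bases, chr5:30155163-30155247, plus strand, GRCm38.p6 (RefSeq assembly sequence), with Hadha to its left and Hadhb to its right, and GC boxes (GGGCGG) in capitals.
Hadha-Hadhb stretch: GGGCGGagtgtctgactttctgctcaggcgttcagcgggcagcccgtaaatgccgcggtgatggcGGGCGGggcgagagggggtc
It is 69.41% G and C and holds 2 GC boxes. The RefSeq starts of both genes are 273 bases apart, and that of Hadha, at position 30154980, lies to the left of the stretch. An opposite-strand start within 300 bases was found for 8.362% of 32851 mouse promoters.

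Promoter bases of Hadh and Cpt1a are shown next because these members differed most between stem-like and megakaryocyte-like cells. Capitals mark CCAAT, the GC box GGGCGG and the nuclear receptor half-site AGGTCA, each on either strand. The Hadh bases are chr3:131272102-131272351, minus strand. The Cpt1a bases are chr19:3323051-3323284, plus strand, cut where an annotated exon begins. They precede a RefSeq start of Cpt1a at position 3323301, which lies inside the gene, since its first annotated GENCODE exon starts at 3322334.
Hadh: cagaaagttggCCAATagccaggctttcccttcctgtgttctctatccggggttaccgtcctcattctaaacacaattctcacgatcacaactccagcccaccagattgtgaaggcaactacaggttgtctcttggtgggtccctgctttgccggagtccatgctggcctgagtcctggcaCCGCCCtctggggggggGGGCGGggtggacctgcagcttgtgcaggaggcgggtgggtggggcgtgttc
Cpt1a: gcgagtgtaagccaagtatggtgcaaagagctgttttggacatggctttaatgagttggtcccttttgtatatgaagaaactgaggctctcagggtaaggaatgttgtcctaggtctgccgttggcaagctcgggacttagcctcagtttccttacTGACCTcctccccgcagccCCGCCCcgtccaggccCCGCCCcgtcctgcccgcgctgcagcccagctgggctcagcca
In the 250 bases before the start that the RefSeq table uses, 9 members were searched on both strands. GGGCGG was present in 6 of them against 32.7% of all promoters, with Hadha and Hadhb counted separately although their windows share 228 of 250 bases, and AGGTCA in 3 (Acadm, Acadvl and Cpt1a) against 14.0%. The PPAR-type element, in which AGGTCA is repeated in the same direction 1 base apart, was in 0 of 9 and in 0.0335% of all promoters. These matches describe letters only.

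Over all cells the members ranked from 1079 (Acadl) to 6546 (Cpt2) by level among 14366 genes in the vehicle library. In the DFO library they ranked from 1220 to 6895, and most levels were slightly lower with DFO. Of the 10, 7 had a difference below 0, against 41.3% of the 7476 genes tested, which are those that reached 10 CPM in 1 library or both. The median was -0.086 for the members and 0.021 for all those genes. At or below -0.1 were 4 members, Cpt2, Acadl, Hadha and Acaa2, against 13.4% of genes, and at or above 0.1 was 1, Hadh, against 19.1%. The summed level was 698.0 CPM (694.8 to 701.2) in the vehicle and 669.1 CPM (666.1 to 672.1) in the DFO library, a difference of -0.06. All differences were under 0.2 in size.

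**Figure D1:**
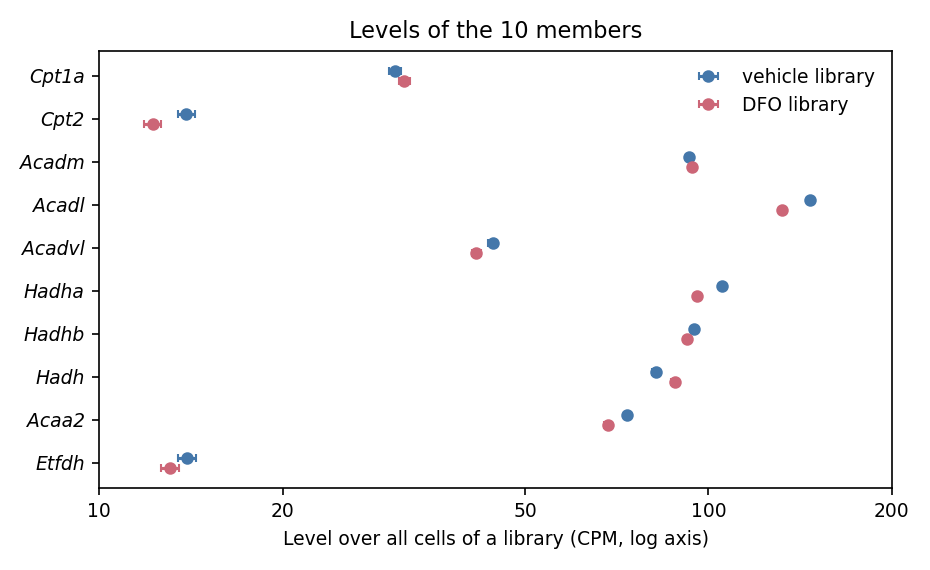
Level of each member (CPM, log axis) over all cells of the vehicle (blue) and DFO (red) libraries, with exact 95% Poisson intervals, which are narrower than the points for most members. Acadl is at the top at 146.7 and 132.0 CPM, and Cpt2 and Etfdh are at the bottom at 12.2 to 13.9 CPM.

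The carnitine shuttle enzymes differed from each other. Cpt1a, the regulated entry step, was at 30.6 CPM (29.9 to 31.2) in the vehicle and 31.7 CPM (31.0 to 32.3) in the DFO library, a difference of 0.05 with overlapping intervals. Cpt2 was at 13.9 CPM (13.4 to 14.4) and 12.2 CPM (11.8 to 12.6), a difference of -0.17, and 5.48% of tested genes lay lower. Cpt2 was thus the member with the largest difference, on 3625 and 3477 molecules, and its intervals did not overlap.

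The acyl-CoA dehydrogenases carry the first step of each round, and each prefers a chain length. Acadm, for medium chains, was at 92.97 CPM (91.8 to 94.1) with vehicle and 94.1 CPM (92.9 to 95.2) with DFO. Acadl, for long chains, was at 146.7 CPM (145.3 to 148.2) and 132.0 CPM (130.7 to 133.4), a difference of -0.15, and 6.82% of genes lay lower. Acadvl, the very long chain enzyme of the inner membrane, was at 44.2 CPM (43.4 to 45.0) and 41.6 CPM (40.9 to 42.4), a difference of -0.09. The long-chain enzymes were lower with intervals that did not overlap, while the medium-chain enzyme differed by 0.02 with overlapping intervals. Acadvl shares exon positions with Dvl2 on the opposite strand, and whether the counting used strand is not stated in the sources used.

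The later steps also went different ways. Hadha, the hydratase and dehydrogenase subunit, was at 105.4 CPM (104.2 to 106.7) with vehicle and 95.7 CPM (94.6 to 96.8) with DFO, a difference of -0.14. Hadhb, the thiolase subunit, was at 94.6 CPM (93.46 to 95.8) and 92.3 CPM (91.2 to 93.46), a difference of -0.04. The intervals of Hadha were well apart and those of Hadhb touched. Hadh, the short-chain 3-hydroxyacyl-CoA dehydrogenase, was at 82.0 CPM (80.9 to 83.1) and 88.0 CPM (86.9 to 89.1), a difference of 0.10, above 80.9% of genes. Acaa2, the mitochondrial thiolase, was at 73.6 CPM (72.6 to 74.6) and 68.5 CPM (67.5 to 69.4), a difference of -0.10. Hadh was the 1 member to reach 0.1 upward, and with equal cluster shares in both libraries its difference was 0.0496. Apart from the shallow cluster 6, Hadh was lowest in megakaryocyte-like cells, with an overlapping interval in cluster 8. Megakaryocyte-like cells were 23.1% of the vehicle and 17.5% of the DFO library. Within them Hadh was at 59.3 CPM with vehicle and 63.8 CPM with DFO. The part of cell shares in the Hadh difference was not tested. Etfdh, which hands the electrons to ubiquinone, was at 13.9 CPM (13.5 to 14.4) and 13.1 CPM (12.6 to 13.5), a difference of -0.09 with intervals that touched. Hadha overlaps Garem2 exons and Etfdh overlaps 4930579G24Rik exons on the opposite strand.

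The pool held mice of both sexes, so female and male cells are cells of different animals in the same libraries. In 4751 vehicle and 5251 DFO female cells, 7 members were below 0, against 42.5% of all genes tested. The median was -0.08 for the members and 0.019 for all those genes. In 2767 and 3266 male cells, 7 were also below 0, against 41.8% of genes, and the medians were -0.08 and 0.022. The Cpt2 difference was -0.22 among female and -0.11 among male cells, that of Acadl -0.14 and -0.15, and that of Hadha -0.14 and -0.12. For Hadh it was 0.11 and 0.10. Cells of both sexes thus gave the same sign for each member, with the widest gaps at Cpt2, Cpt1a (0.02 and 0.09) and Acaa2 (-0.14 and -0.07). Both sexes shared 1 culture and 1 library per group, so these are not replicates of the treatment.

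**Figure D2:**
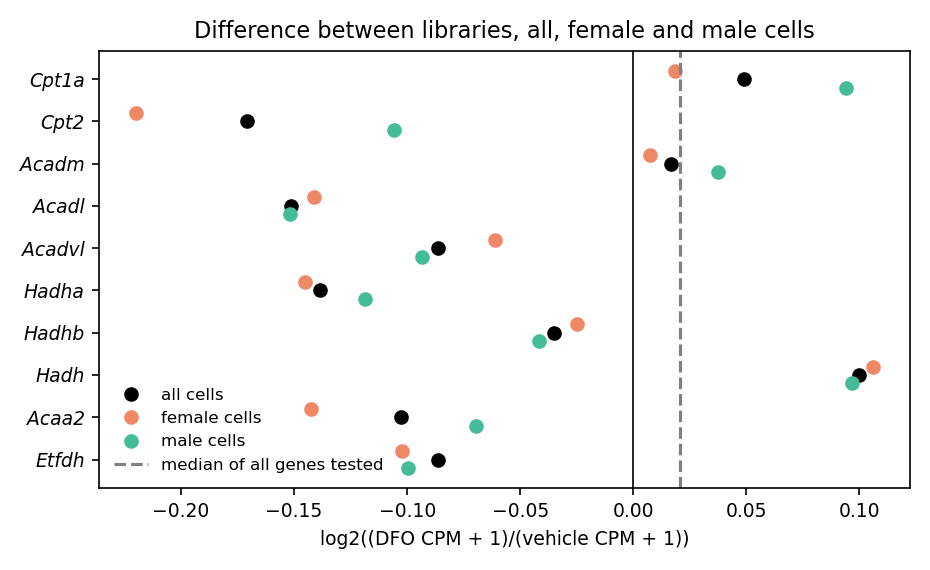
Difference between the DFO and vehicle libraries for each member (log2 of CPM + 1) in all cells (black), female cells (orange) and male cells (green), with the median of all genes tested as a dashed line at 0.021. The points of Cpt2, Acadl and Hadha lie below -0.1 in all cells and in cells of each sex, and Hadh lies near 0.10.

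In single cells the members were found in part of the cells at any time. After thinning to 10000 molecules per cell, which left out 351 vehicle and 433 DFO cells, Acadl was seen in 76.2% (exact 95% interval 75.2% to 77.1%) of vehicle and 72.5% (71.6% to 73.4%) of DFO cells. Unthinned, the shares were 94.0% and 92.9%. Cpt2 was seen in 13.2% (12.5% to 14.0%) and 11.5% (10.8% to 12.1%), and Hadh in 56.2% (55.1% to 57.2%) and 58.3% (57.3% to 59.3%). For Cpt2 the unthinned shares were 33.2% and 28.9%, and for Hadh 85.3% and 86.4%. A thinned cell held a mean of 4.58 of the 10 members with vehicle and 4.49 with DFO, on 7.11 and 6.84 molecules. The pathway is widely expressed, so no cell type in the data serves as a background for these shares.

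Cells fell into 9 clusters, made without any gene of the fatty acid lists. Cluster 4 (2620 cells) was HSC-like, with Sult1a1, Procr and Ly6a among its leading genes, cluster 0 (3735 cells) megakaryocyte-like, with Cavin2, Pf4 and Treml1, and cluster 5 (1043 cells) erythroid-like, with Klf1, Gata1 and Aqp1. Of 14 HSC markers, 11 were higher in cluster 4 than in cluster 0 with vehicle and 10 with DFO. Slamf1, which encodes the CD150 of the sort, was lower there, at 6.74 against 25.8 CPM with vehicle and 6.77 against 23.5 CPM with DFO, as were Ctnnal1 and Meis1. The progenitor marker Flt3 was at 19.8 CPM in cluster 4 with vehicle and at 0.973 CPM in cluster 0. Cluster 5 also had Siglecf and Cpa3 among its leading genes, and Pf4 was at 1460 CPM there with vehicle. Its name rests on part of the erythroid list. The sum of 12 erythroid markers was 1144 and 1056 CPM in cluster 5, below 1482 and 1339 CPM in cluster 4. Hbb-bt was at 277 CPM in cluster 5 and 1099 CPM in cluster 4 with vehicle. Gata1 and Klf1 were as high in cluster 7, which kept no name, at 66.2 and 11.6 CPM against 64.8 and 11.0 CPM with vehicle. Cluster 8 (170 cells) was neutrophil-monocyte-like, with Mpo, Elane and Ctsg. The others kept no name: cluster 1 was led by mitosis genes such as Nusap1 and Ube2c, cluster 2 by histone genes, cluster 3 by Ung and Tmem121, and cluster 7 by Il1rl1 and Rhag among others. Cluster 6 (884 cells) was shallow, with a median of 6926 molecules and a mitochondrial share of 6.86%.

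The summed level of the members was lower in the megakaryocyte-like than in the HSC-like cells. In the vehicle library it was 665.0 CPM in the megakaryocyte-like, 677.4 in cluster 2, 698.1 in cluster 1, 736.6 in cluster 3, 755.7 in the HSC-like, 778.6 in cluster 7 and 800.7 CPM in the erythroid-like state. The neutrophil-monocyte-like state was at 630.8 CPM and the shallow cluster 6 at 370.6 CPM. In the DFO library the megakaryocyte-like state was at 625.7, cluster 2 at 648.2, cluster 1 at 675.0, cluster 3 at 716.3, the erythroid-like at 730.6, the HSC-like at 732.0 and cluster 7 at 753.0 CPM. Leaving aside the erythroid-like state, the order was the same in both libraries. In each library the HSC-like interval overlapped those of its neighbours, cluster 3 and cluster 7, and lay apart from that of the megakaryocyte-like state. The sum was lower with DFO in all 9 clusters, with overlapping intervals in clusters 6, 7 and 8. In HSC-like cells it was 755.7 CPM (746.0 to 765.5) and 732.0 CPM (722.6 to 741.6). With equal cluster shares in both libraries, the median member difference was -0.0763, that of the sum -0.0624 and that of Hadh 0.0496.

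**Figure D3:**
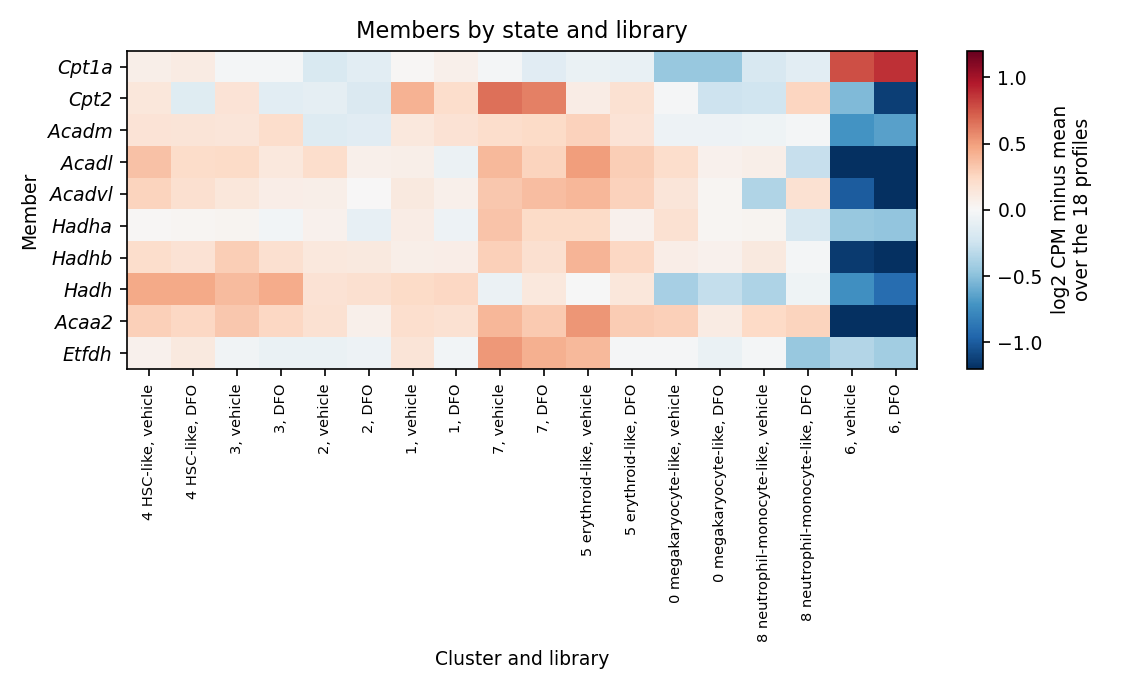
Level of each member in each cluster and library, as log2 CPM minus the member's mean over the 18 profiles, with red above and blue below the mean and colours that saturate at 1.2. Cluster 6 at the right is blue for all members but Cpt1a, which is at 57.1 and 61.1 CPM there. Hadh is red in the HSC-like state and in cluster 3, and blue in the megakaryocyte-like state.

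Hadh differed most between the HSC-like and megakaryocyte-like states. It was at 106.8 CPM (103.2 to 110.6) in HSC-like and 59.3 CPM (57.6 to 61.0) in megakaryocyte-like vehicle cells. In DFO cells it was at 106.6 CPM (103.0 to 110.2) and 63.8 CPM (61.8 to 65.9). On the log2 scale HSC-like cells were higher by 0.84 and 0.73. Cpt1a followed, at 35.1 CPM (33.0 to 37.2) against 24.3 CPM (23.2 to 25.4) with vehicle and 35.7 CPM (33.7 to 37.9) against 24.4 CPM (23.2 to 25.7) with DFO, or 0.51 and 0.53. Both genes were thus higher in HSC-like than in megakaryocyte-like cells by about the same amount in each library. Other clusters came close to the HSC-like level. Hadh was at 101.2 CPM (97.6 to 104.9) with vehicle and 106.4 CPM (103.2 to 109.7) with DFO in cluster 3, overlapping the HSC-like intervals. It was at 91.4 and 92.6 CPM in cluster 1. Cpt1a was at 33.7 and 34.7 CPM in cluster 1 and at 32.9 CPM in both libraries in cluster 3, also with overlapping intervals. In female cells the Hadh difference was 0.848 with vehicle and 0.684 with DFO, and in male cells 0.814 and 0.791. For Cpt1a it was 0.572 and 0.559 in female and 0.476 and 0.503 in male cells.

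The other 8 members differed less. Acadm was higher in HSC-like cells by 0.22 and 0.21, Acadl by 0.14 and 0.16, Acadvl by 0.12 and 0.16, Hadhb by 0.13 and 0.12 and Cpt2 by 0.14 and 0.09. Etfdh differed by 0.07 and 0.19. Acaa2 differed by 0.00 with vehicle and 0.15 with DFO, and Hadha by -0.17 and 0.00. At or above 0.25 were 2 members in the vehicle library, against 24.8% of 7805 genes, and 2 in the DFO library, against 22.5% of 7782. At or below -0.25 were 0 members in either, against 26.9% and 25.0% of genes. The count of higher members was near the share of all genes, and the median was 0.13 and 0.16 for the members against -0.03 and -0.04 for all genes. States were built from the same cells, so these are descriptions. Depth moved with them, with medians of 22674 molecules in the HSC-like and 32830 in the megakaryocyte-like cluster. Over cells thinned to 1 depth the Hadh difference was 0.781 with vehicle and 0.822 with DFO, and that of Cpt1a 0.411 and 0.615.

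**Figure D4:**
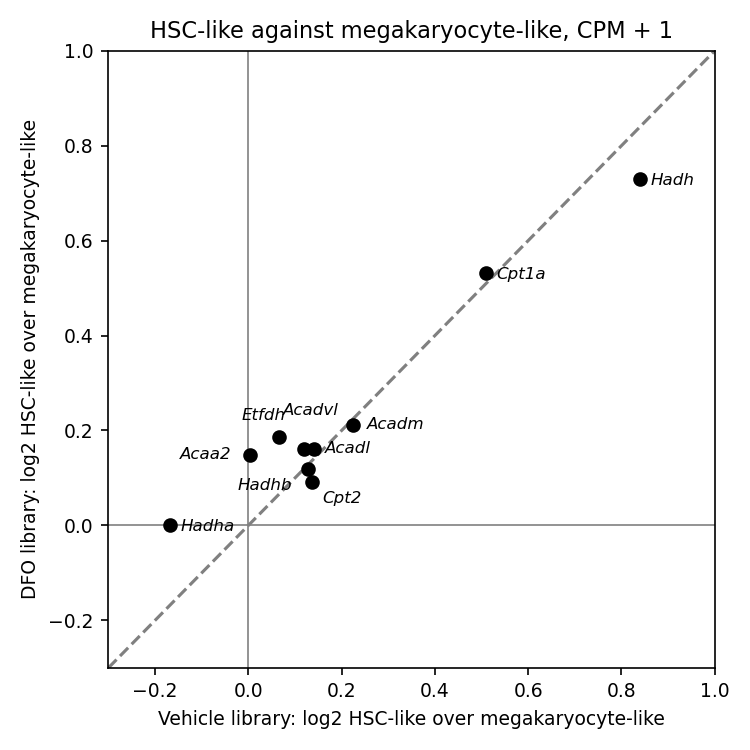
Difference between HSC-like and megakaryocyte-like cells for each member (log2 of CPM + 1) in the vehicle library (x axis) and the DFO library (y axis), with equal values on the dashed line. Hadh at 0.84 and 0.73 and Cpt1a at 0.51 and 0.53 stand at the upper right, and the other 8 members lie between -0.17 and 0.22.

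Within states, the difference between libraries varied. The median over the members was -0.09 in the megakaryocyte-like, -0.03 in the HSC-like and -0.14 in the erythroid-like state, where the medians of all genes were 0.03, 0.02 and 0.01. In the megakaryocyte-like state it was -0.124 in female and -0.0175 in male cells, and in the HSC-like state -0.0546 and -0.0322. In the neutrophil-monocyte-like state, with 89 vehicle and 81 DFO cells, it was 0.03. Single members ran from -0.52 (Cpt2 in cluster 6, on 35 and 23 molecules) to 0.53 (Acadvl in cluster 8, on 87 and 111 molecules). In the megakaryocyte-like state 8 members were below 0 against 39.8% of genes, in the HSC-like state 7 against 43.1%, and in the erythroid-like state 8 against 47.8%. Whether the states differ from each other in this could not be tested. Acadl was lower with DFO in 8 of 9 clusters, with cluster 6 the exception at 49.4 and 50.5 CPM. Hadh was at nearly 1 level in HSC-like cells of both libraries, and higher with DFO in megakaryocyte-like cells, where its intervals did not overlap.

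Cpt1a stood apart from the other members in the shallow cluster 6. There it was highest, at 57.1 CPM (49.9 to 65.0) with vehicle and 61.1 CPM (53.6 to 69.2) with DFO. Outside cluster 6 it was lowest in megakaryocyte-like and highest in HSC-like cells in both libraries, as Hadh was. The other 9 members were lowest in cluster 6 in the vehicle library, and Acaa2 most of all, at 13.0 CPM there against 88.8 CPM in the erythroid-like state. In the DFO library 8 of the 9 were lowest in cluster 6, and Etfdh was lowest in cluster 8, at 9.77 CPM. Cluster 6 cells had the highest mitochondrial share, and the part of depth and RNA quality in these levels was not tested.

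Transcripts of the subunits of the trifunctional protein, whose genes flank the stretch shown above, did not keep 1 ratio. There were 1.11 Hadha molecules per Hadhb molecule (1.10 to 1.13) in the vehicle and 1.04 (1.02 to 1.05) in the DFO library. With vehicle the ratio was 1.22 (1.18 to 1.26) in megakaryocyte-like and 0.99 (0.94 to 1.05) in HSC-like cells. With DFO it was 1.12 (1.08 to 1.16) and 1.03 (0.98 to 1.08). In cluster 6 it was 1.83 (1.503 to 2.24) and 2.27 (1.83 to 2.82). Megakaryocyte-like cells thus held more Hadha per Hadhb than HSC-like cells beyond counting error with vehicle, while with DFO the intervals of the 2 states overlapped slightly. Whether molecules of Garem2, which overlaps Hadha exons on the opposite strand, entered these ratios was not tested.

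Over the 18 cluster by library profiles, which share libraries and neighbouring cells, most pairs of members had a correlation above 0. Of 45 pairs, 36 were above 0, and the 9 below 0 were the pairs of Cpt1a. Values ran from -0.86 to 0.97, with a median of 0.75. Without cluster 6, 42 pairs were above 0, and values ran from -0.27 to 0.89 with a median of 0.51. Of the pairs of Cpt1a, only that with Hadha was then below 0, at -0.11, and that with Hadh was at 0.81. The negative values of Cpt1a over all profiles thus rest mostly on cluster 6. The share of pairs above 0 among all genes was not computed, so these counts do not set the members apart. The gene most like the summed level was Decr1 (r = 0.988, 18 profiles), the dienoyl-CoA reductase of unsaturated fatty acid oxidation, followed by Naxe (0.984), Sept7 (0.983), Sdha (0.980) and Papss1 (0.979). Most like Cpt1a were Gigyf1 (0.975) and Rfx7 (0.969), most like Hadha S100a13 (0.970) and Slc25a11 (0.960), most like Hadhb Rnh1 (0.994) and Sbds (0.992), and most like Etfdh Scand1 (0.930) and Hint3 (0.930). These likenesses rest on cluster 6: without it every one of these names changed, and Gyg (0.950, 16 profiles) and Aamdc (0.948) came first for the summed level.

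The rest of the pathway gives the setting. Of 14 other mitochondrial beta-oxidation enzymes tested, 1 was at or below -0.1 with DFO and 0 at or above 0.1, with a median of -0.01. Over all genes tested these shares were 13.4% and 19.1%. The lowest was Eci2, an enoyl-CoA isomerase, at 62.3 and 56.8 CPM, and the highest Acad8, of valine breakdown, at 13.1 and 14.1 CPM. Of the 14, 7 were below 0, against 41.3% of all genes tested. Besides Eci2 they were Hsd17b10 (-0.09), Acads (-0.08), Decr1 (-0.07), Acat1 (-0.06), Mut (-0.05) and Gcdh (-0.02). Echs1 (0.03), Eci1 (0.05) and Acad9 (0.003) were above 0, as were Acadsb, Acad8, Ivd and Pcca, of amino acid or propionate breakdown. These genes were named after their values were seen. Among electron transfer flavoprotein genes, Etfb, the beta subunit, was at 489.7 CPM with vehicle and 399.5 CPM with DFO, a difference of -0.29, while its partner Etfa was at 105.7 and 110.1 CPM (0.06). Slc25a32, a mitochondrial folate and FAD carrier, was at 11.9 and 13.8 CPM (0.20). Etfb thus differed more than any of the 10 members. It was also lower in HSC-like than in megakaryocyte-like cells, at 365.8 against 646.3 CPM with vehicle and 319.3 against 535.6 CPM with DFO.

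Before and beside the mitochondrial spiral, Acsl5 and Acaa1a differed more than any member. Of all genes tested, 13.4% were at or below -0.1. Of 5 uptake and activation genes tested, 1 was at or below -0.1, Acsl5, an acyl-CoA synthetase, at 58.2 and 49.1 CPM (-0.24), and the highest was Fabp5, a fatty acid binding protein, at 409.8 and 433.5 CPM (0.08). The carnitine carrier Slc25a20 was at 15.9 and 16.3 CPM, Aldh9a1, of carnitine synthesis, at 64.8 CPM in each, and Tmlhe, an iron-dependent enzyme of carnitine synthesis, at 1.74 and 1.82 CPM, under the 10 CPM minimum. Of 7 peroxisomal genes, 1 was at or below -0.1, the thiolase Acaa1a, at 31.1 and 26.2 CPM (-0.24), and the highest was Pecr at 23.9 and 25.6 CPM (0.10). Of 9 regulators, Mlycd, which removes malonyl-CoA, was the lowest (-0.11) and Esrra, a nuclear receptor of energy metabolism, the highest (0.11). Of 7 PPAR-responsive genes, which include Acaa2, Acadvl and Cpt1a, 2 were at or below -0.1 and the median was -0.06.

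Citric acid cycle and import genes had medians above 0, as did all genes tested, at 0.021. Of all genes tested, 19.1% were at or above 0.1 and 13.4% at or below -0.1. Of 17 citric acid cycle genes, 5 were at or above 0.1 and 2 at or below -0.1, with a median of 0.06. Sdhd was the highest, at 77.4 and 98.2 CPM (0.34), and Sdhb, the iron-sulfur subunit of the same complex, the lowest, at 148.0 and 129.6 CPM (-0.19). Of 13 import and outer membrane genes, 5 were at or above 0.1 and 0 at or below -0.1, with a median of 0.09, from Timm50 at -0.00 to Hspd1, the mitochondrial chaperonin, at 0.18. The members' median of -0.09 was thus below that of both lists.

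**Figure D5:**
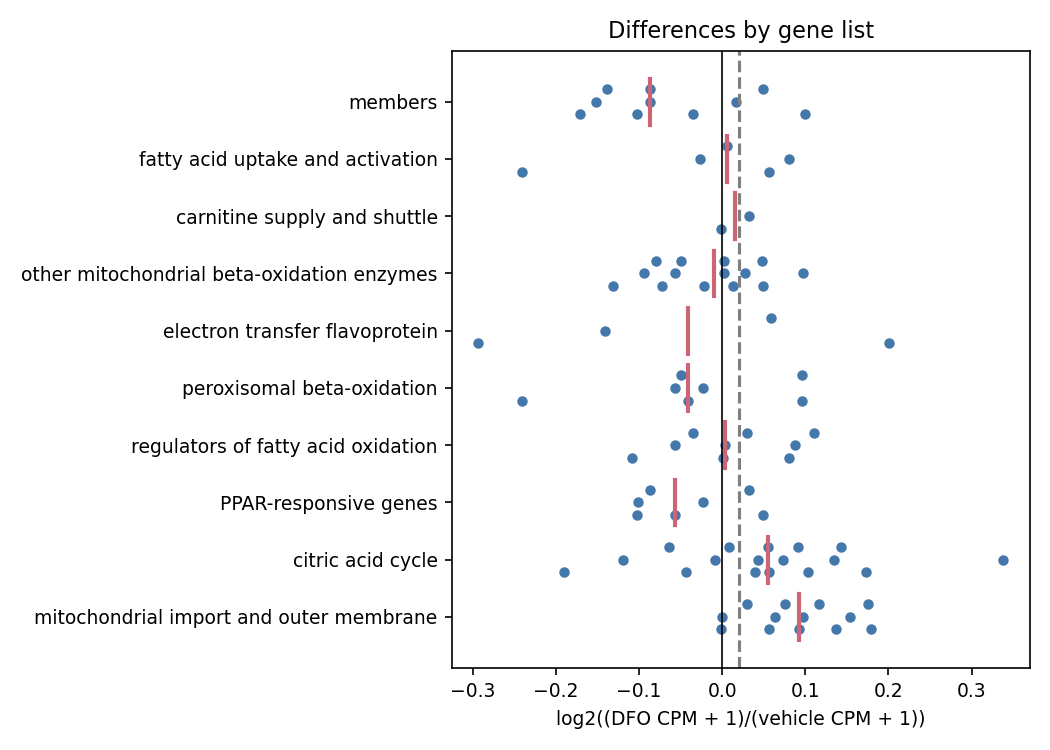
Difference between the DFO and vehicle libraries (log2 of CPM + 1) for every tested gene of each list, 1 point per gene, with the list's median as a red bar and the median of all genes tested as a dashed line. The members' median is -0.086, that of the citric acid cycle 0.055 and that of the import genes 0.092, and the lowest point is Etfb at -0.29.

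Between states, the list of other mitochondrial beta-oxidation enzymes had medians of 0.25 with vehicle and 0.27 with DFO for HSC-like over megakaryocyte-like cells. Of its 14 genes, 7 were at or above 0.25 in each library and the same 7 in both, against 24.8% and 22.5% of all genes. Of these, Acads, Echs1 and Decr1 act on fatty acids, while Acadsb, Acad8, Ivd and Pcca act in amino acid or propionate breakdown. Echs1, the short-chain hydratase, differed by 0.59 and 0.51, while Eci1, an enoyl-CoA isomerase, differed by 0.07 and 0.24 and Acad9 by -0.14 and -0.03. The electron transfer flavoprotein genes had medians of -0.32 and -0.36, with 3 at or below -0.25 in each library, among them Etfb at -0.82 and -0.74. The citric acid cycle had medians of -0.08 and -0.06, and the import genes -0.25 and -0.24, with 6 of 13 at or below -0.25 in each, against 26.9% and 25.0% of all genes. The genes of this paragraph were chosen after their values were seen.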

How the data were processed

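Single-cell 3′ libraries (10x Genomics v3, BGISEQ-500) were measured for 1 vehicle and 1 DFO sample. Cell Ranger 3.0.2, Trim Galore 0.6.5, FastQC 0.11.9 and mm10 are named in the submitters' processing notes. No source used here states the annotation, the strand setting or how cells were filtered. The authors deposited natural log values per gene and cell. Every nonzero value is a whole molecule count within 0.05 when back-transformed from the natural log of 1 + 27408 × molecules/total, so molecules were recovered and summed.

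Work was done in Python 3.11.15 (numpy 2.4.6, scipy 1.17.1, scanpy 1.11.5, leidenalg 0.10.2, matplotlib 3.10.9). The pseudocount was 1 CPM, and backgrounds took genes that reached 10 CPM in either library. The script was checked on simulated counts. Clusters used 2000 variable genes without any fatty acid gene (9 list genes and 0 members would have entered), 30 components, 15 neighbours and Leiden resolution 0.5. Genes of a cell cycle list, mitochondrially encoded genes and Rpl and Rps genes were left out of the variable genes too. A name needed at least 3 detected markers and 2 in the top 10, the latter set after seeing the data. Scrublet called 3 and 2 cells and had not worked, so 820 and 925 likely doublets (cells of both sexes, top 8% by score) were left out as an alternative only. Female cells had 5 or more Xist molecules and no Y-linked ones, male cells at most 1 and 2 or more.

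The members, gene lists and rules were chosen with earlier results of these data known. Named are all members, the highest and lowest gene of each list, genes fixed for iron, the most alike genes by correlation and cluster-leading genes; others are said to be chosen later. Alternatives covered cell combination, scaling, pseudocount, cell filter, thinning, sex, cluster shares and clustering. Added after seeing the data were leaving out cluster 6 and splitting the state comparison by sex. Promoters came from RefSeq (GRCm38.p6), for 9 members. Some list genes were not analysed here. One gene that the naming rule covers is not reported here.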

Additional observations from a re-analysis of the deposited data

How the results depend on the processing

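Over 12 settings Cpt2, Acadl and Hadha stayed at or below -0.1, and Cpt1a, Hadh, Acadvl, Hadhb, Acaa2 and Etfdh kept their sign. Acadm reversed to -0.00483 under median of ratios scaling and to -0.00349 in thinned cells. Cpt1a ranged from 0.0185 (female cells) to 0.094 (male cells), and Acaa2 from -0.143 (female cells) to -0.0432 (thinned cells). Hadh ranged from 0.0496 (equal cluster shares) to 0.109, and was at or above 0.1 in 6 settings. The number of members below 0 ranged from 5, where a 20 CPM minimum removed Cpt2 and Etfdh, to 8. The number at or below -0.1 ranged from 3 to 6, with 6 under median of ratios scaling, where 50.3% of all genes were below 0. The median ranged from -0.107 under median of ratios scaling to -0.0483 in thinned cells, and the sum differed by -0.0825 under median of ratios scaling and -0.0508 in male cells.

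State values moved with the clustering. In the main clustering 1 member (vehicle) and 0 (DFO) were lower in HSC-like than in megakaryocyte-like cells. Of all genes tested there, 53.6% and 54.7% were lower. That share was not computed for the other settings. At resolution 0.25 the members lower in HSC-like cells numbered 3 (vehicle) and 1 (DFO), with medians of 0.0583 and 0.0753, an HSC-like sum of 723 CPM (DFO) and megakaryocyte-like sums of 691 and 647 CPM. At resolution 1.0 they were 3 and 1, with HSC-like sums of 727 and 703 CPM. With the fatty acid genes the medians were 0.195 and 0.243 and the HSC-like sums 792 and 774 CPM. Without the 598 genes that differed between libraries the medians were 0.185 and 0.221, the HSC-like sums 822 and 796 CPM and the megakaryocyte-like sums 692 and 648 CPM. In thinned cells 2 members were lower (vehicle) and the megakaryocyte-like sum was 676 CPM. Without likely doublets 2 and 1 were lower. In female DFO cells 1 was lower. In male vehicle cells 3 were lower, the DFO median was 0.109, and the megakaryocyte-like member difference was -0.0175.

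HSC-like over megakaryocyte-like values near 0 reversed. At resolution 0.25 Acaa2 was -0.011 and Etfdh -0.117 (vehicle) and Hadha -0.0426 (DFO). At resolution 1.0 Acadl was -0.0224 and Acaa2 -0.0474 (vehicle) and Hadha -0.129 (DFO). Acaa2 with vehicle was -0.0182 in thinned cells, -0.000579 without likely doublets and -0.016 in male cells, where Acadvl was -0.0471. Hadha with DFO was -0.00193 without likely doublets and -0.00613 in female cells. Hadh stayed between 0.639 and 0.985 and Cpt1a between 0.347 and 0.719 in both libraries. The cause of these changes was not tested.

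With 1 library per group, no setting shows how far cultures would differ. Counting error is small for the sums over all cells and larger in clusters 6 and 8.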

Other observations

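Several genes outside the members, chosen after their values were seen, were higher in HSC-like than in megakaryocyte-like cells. Pml, a nuclear body protein linked to fatty acid oxidation in HSC, was at 34.8 CPM in HSC-like and 16.7 CPM in megakaryocyte-like vehicle cells, and at 34.5 and 20.02 CPM in DFO cells. Pml and Sirt3 were fixed in the list of regulators, of whose 9 tested genes 4 were at or above 0.25 in HSC-like cells and 2 at or below -0.25 in each library. Of all genes, 24.8% (vehicle) and 22.5% (DFO) were at or above 0.25, and 26.9% and 25.0% at or below -0.25. The median of that list was -0.16 with vehicle and -0.11 with DFO, and Nrf1, at 25.1 against 36.2 CPM with vehicle, and Prkaa1, at 13.0 against 19.1 CPM, were lower. Sirt3, the main mitochondrial deacetylase, was at 126.4 and 71.6 CPM with vehicle and 122.5 and 69.2 CPM with DFO. Acot1, a thioesterase that PPAR receptors induce in other tissues, was at 22.9 CPM in HSC-like and 0.960 CPM in megakaryocyte-like vehicle cells, and at 23.8 and 1.51 CPM in DFO cells. Pml was highest of all in the shallow cluster 6, at 50.6 and 64.8 CPM, as Cpt1a was.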
